A study of Mus musculus with 3 samples.

Results

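The Fn1-silenced ST2 library was compared directly with the NELL2-overexpressing ST2 library, and the control library was kept out of the ratio. ST2 is a stromal cell line from mouse bone marrow with the capacity to become osteoblasts or adipocytes. Every gene with a name of its own and at least 5 FPKM in either of these libraries was included, which gave 8820 of 51618 uniquely named genes, or 17.1%. FPKM is the number of fragments per kilobase of transcript, scaled to the number of mapped fragments, as deposited by the authors. All 3 libraries came from co-transfected cells. The NELL2-overexpressing cells received the NELL2 expression construct, Myc-tagged according to the methods, together with control siRNA. The Fn1-silenced cells received siRNAs against Fn1 together with empty vector, and the control cells received control siRNA together with empty vector. The siRNA dose was 30 nM in each case, and a lipofectamine reagent carried the nucleic acids into all cells. PolyA RNA was sequenced as paired ends. The libraries compared here therefore differ in 2 components, the plasmid and the siRNA. There was 1 library in each group and nothing that ties a library to a number of cultures, so no test was possible, every difference is a difference between libraries, and the words higher and lower carry no statement about replicates.

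Fibronectin, the product of Fn1, is a secreted glycoprotein that cells assemble into fibrils through integrins, which link the matrix to focal adhesions, the actin cytoskeleton and kinases such as FAK and AKT. NELL2 is a secreted glycoprotein with EGF-like and thrombospondin-like domains, known as a neuronal ligand. A direct comparison of a library with less Fn1 and a library with more NELL2 shows where 2 changes in secreted proteins leave the transcriptome apart. The control library, itself transfected with control siRNA and empty vector, shows which of these libraries lies away from the control level.

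The targeted genes followed their labels. Nell2 lies on GRCm38 chromosome 15 (95075230 to 95528559, minus strand, ENSMUSG00000022454.17). Its level was 0.640 FPKM in the control, 326 FPKM with the construct and 1.06 FPKM with Fn1 siRNA, and the table does not separate construct from endogenous transcripts. Its direct log2 ratio, always the Fn1-silenced minus the NELL2-overexpressing value of log2(FPKM + 1), was -7.31. For Fn1, on the minus strand of chromosome 1 (71585520 to 71653200, ENSMUSG00000026193.15), the values in that order were 2802, 2489 and 137 FPKM, with a direct log2 ratio of -4.18. The Fn1-silenced library thus held 5.50% of the Fn1 level of the NELL2-overexpressing library, and these genes had the lowest ratios of all genes that overlap no other gene.

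The stromal label was matched by its markers. All 12 stromal markers reached 1 FPKM, with summed levels of 2274, 2452 and 2131 FPKM in the control, NELL2-overexpressing and Fn1-silenced libraries. None of 12 endothelial, epithelial and muscle markers reached 1 FPKM, and Epcam, Tie1 and Ckm were listed at 0 in every library. Among 11 macrophage and blood cell markers 5 reached 1 FPKM, with sums of 20.8, 24.0 and 13.3 FPKM, while Cd3e and Hbb-bs were listed at 0. The largest of these was Lyz2, the macrophage lysozyme, at 11.8, 13.9 and 7.22 FPKM. Among 8 osteoclast markers only the protease gene Ctsk and the phosphatase gene Acp5 reached 1 FPKM, and Calcr and Dcstamp were listed at 0. The estimated depth was 23000000, 23700000 and 24200000 fragments, so a transcript of 2 kb at 1 FPKM rests on 45.9 to 48.4 fragments.

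The libraries were close for most genes. The median direct log2 ratio over the 8820 genes was 0.0007 with an SD of 0.33 across genes, 62.7% of genes lay within 0.2 of 0, and the central 90% lay between -0.49 and 0.43. A ratio of 1 or more in size, which is 2-fold on the log2(FPKM + 1) scale, was reached by 110 genes, a background of 1.25%. Of these, 54 were higher in the Fn1-silenced library (0.612%) and 56 were lower (0.635%). At 1.5-fold the counts were 244 higher (2.77%) and 284 lower (3.22%). The share past 2-fold was 1.41% of genes at 5 to 10 FPKM, 1.05% at 10 to 20 FPKM, 1.17% at 20 to 50 FPKM, 0.949% at 50 to 100 FPKM and 2.08% at 100 FPKM or more, so it was not confined to weakly expressed genes. At 5 FPKM, Alg12 (5.0012 FPKM) and Ercc6l (5.0032 FPKM) lay just inside the inclusion limit and Tigd2 (4.9988 FPKM) and Caap1 (4.9965 FPKM) just outside. At the 2-fold limit, Vcl (-1.0027) and Igf2 (1.0033) lay just inside and Ccnd1 (-0.9971) just outside.

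**Figure D1:**
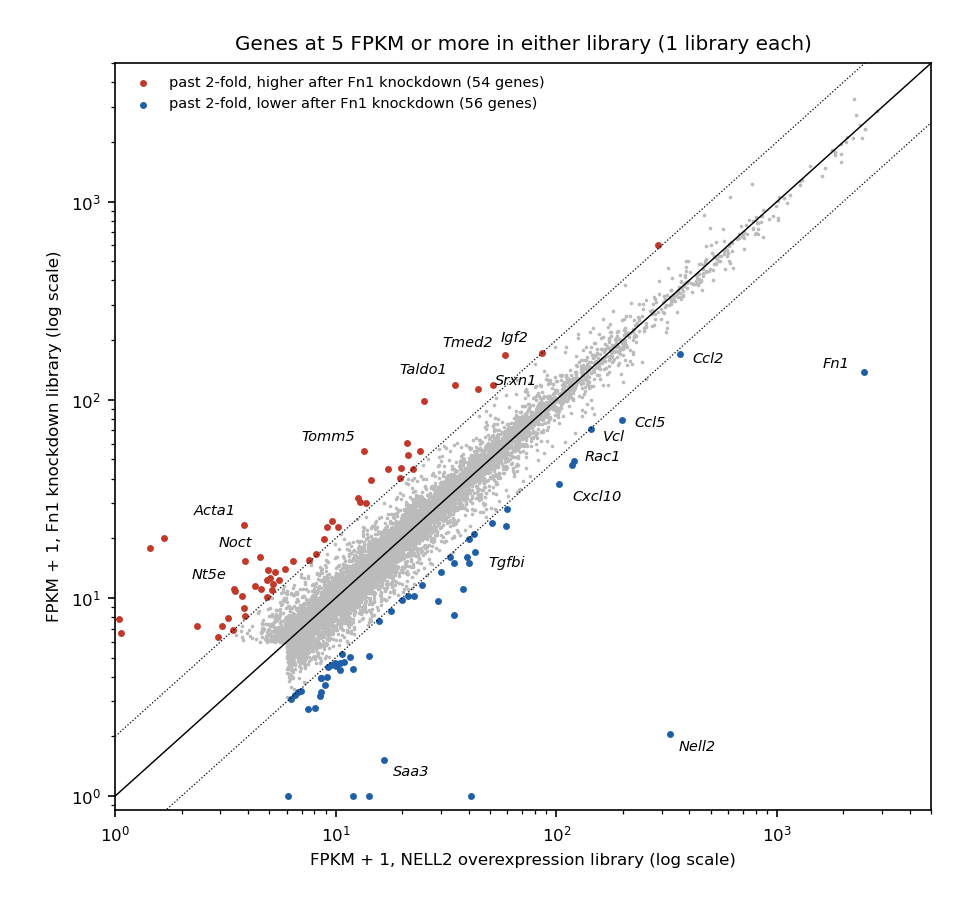
FPKM + 1 of 8820 genes in the NELL2-overexpressing library (x axis, log scale) and the Fn1-silenced library (y axis, log scale), with 1 library each; the solid line marks equality and the dotted lines 2-fold. The 54 genes past 2-fold in the upward direction (red) and the 56 in the downward direction (blue) surround a narrow band of grey genes, and Nell2, Fn1 and Saa3 lie far below it.

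For most of the genes past 2-fold, the Fn1-silenced library was the one farther from the control. On the log2(FPKM + 1) scale the control lay nearer to the NELL2-overexpressing library for 78 of the 110 genes and nearer to the Fn1-silenced library for 32. The control value lay between both libraries for 76 genes, above both for 20 and below both for 14. Against the control itself, 64 of the 110 genes were past 2-fold in the Fn1-silenced library, 21 in the NELL2-overexpressing library, 2 in both and 27 in neither. These 27 genes passed 2-fold only when the perturbed libraries were set against each other. Some of them lay just under the limit against the control, such as Cxcl1 (log2 ratio 0.98 in the NELL2-overexpressing library) and Vgf (0.97 in the Fn1-silenced library). For 19 genes the control lay in the middle 50% of the distance, among them the chemokine genes Ccl2, Ccl5 and Cxcl5, the acute phase gene Saa3, the kinetochore gene Spc25, the thymidylate synthase gene Tyms and the growth factor gene Igf2.

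**Figure D2:**
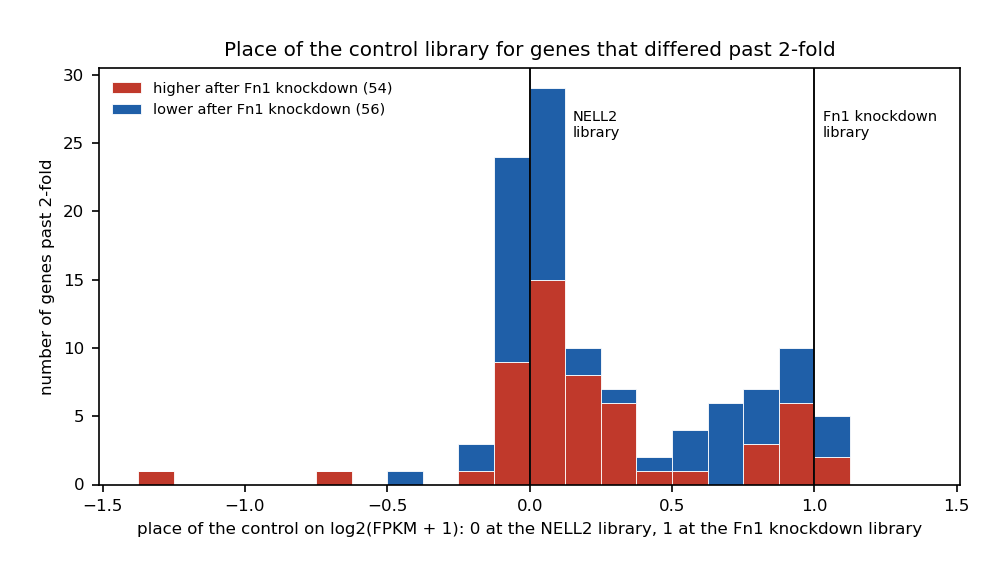
Place of the control library for the 110 genes past 2-fold (x axis, 0 at the NELL2-overexpressing and 1 at the Fn1-silenced value of log2(FPKM + 1); y axis, number of genes, higher genes in red and lower genes in blue, stacked). Most genes gather at 0, where the control equals the NELL2-overexpressing library, and a smaller group gathers at 1.

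Most genes of the NF-kB and acute phase list were lower in the Fn1-silenced than in the NELL2-overexpressing library. In bulk RNA, fewer cells that express a gene and less RNA per cell cannot be told apart. Of 27 genes on the NF-kB and acute phase list, 21 had lower and 6 higher FPKM in the Fn1-silenced library, with a median direct log2 ratio of -0.25 beside 0.0007 over all genes. On this list 5 genes were lower past 2-fold, against the background of 0.635%, and none was higher past 2-fold. Set against the control, the list median was 0.31 in the NELL2-overexpressing library and 0.035 in the Fn1-silenced library. The control was below both libraries for 14 of the 27 genes, between them for 12 and above both for 1.

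Saa3 (chromosome 7, 46711998 to 46715700), which encodes an acute phase apolipoprotein, was at 2.36 FPKM in the control, 15.6 FPKM in the NELL2-overexpressing and 0.525 FPKM in the Fn1-silenced library. Its direct log2 ratio of -3.44 was the lowest after Nell2 and Fn1 among genes without an overlapping neighbour, and it was estimated from about 509 and 17 fragments. The control thus lay between the perturbed libraries. Ccl5 (chromosome 11, 83525778 to 83530518), a chemokine that attracts T cells, was at 119, 196 and 77.6 FPKM, with a ratio of -1.33. Ccl2 (chromosome 11, 82035571 to 82037453), the main chemokine for monocytes, was at 222, 361 and 168 FPKM, with a ratio of -1.10. Both genes were abundant, and in both the NELL2-overexpressing library was the highest and the Fn1-silenced library the lowest.

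The neutrophil chemokine genes followed the same order at lower levels. Cxcl1 (chromosome 5, 90891241 to 90893115) was at 3.62, 8.13 and 2.97 FPKM with a ratio of -1.20, and Cxcl5 (chromosome 5, 90759360 to 90761624) was at 11.2, 18.9 and 8.74 FPKM with a ratio of -1.03. Cxcl10 (chromosome 5, 92346638 to 92348889), an interferon-induced chemokine kept on the interferon list, was at 46.7, 102 and 36.4 FPKM with a ratio of -1.46. Mmp3, the stromelysin gene, was at 3.22, 8.99 and 3.55 FPKM with a ratio of -1.14, and here the Fn1-silenced library stayed at the control level. Not every chemokine gene had this order. Ccl7, a monocyte chemokine gene, was at 84.2, 133 and 110 FPKM (-0.27), with the control lowest, and Cxcl12, which retains blood stem cells in marrow, was at 7.40, 9.44 and 10.7 FPKM (0.16). Both were looked up after their values were known. The NF-kB subunit genes were closer together: Rela was at 33.0, 31.0 and 31.9 FPKM and Nfkb1 at 22.1, 24.5 and 20.5 FPKM. Both were looked up after their values were known, as was Nfkbia, the feedback inhibitor, at 21.1, 30.4 and 18.4 FPKM with a ratio of -0.70. The macrophage and blood cell marker sum of 20.8, 24.0 and 13.3 FPKM had the same order over the libraries as these chemokines, and its part in their difference was not tested.

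Interferon-stimulated genes were lower in the Fn1-silenced library for 38 of 44 genes and higher for 6, with a median ratio of -0.20. Only Cxcl10 was lower past 2-fold, beside 0.635% of all genes. Past 1.5-fold 3 genes were lower, beside 3.22% of all genes, namely Cxcl10, the 2′-5′ oligoadenylate synthetase gene Oas2 (6.52, 10.3 and 5.88 FPKM, -0.71) and the antiviral GTPase gene Mx1 (2.40, 5.41 and 2.92 FPKM, -0.71). Gbp2, a guanylate-binding protein gene, was at 91.4, 130 and 87.9 FPKM with a ratio of -0.56. The control was below both libraries for 30 of the 44 genes, and the list medians against the control were 0.32 in the NELL2-overexpressing and 0.12 in the Fn1-silenced library. Both perturbed libraries were thus above the control at the median, and the NELL2-overexpressing library was the farther of them.

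Antigen-processing genes were split. Of 16 genes on the MHC class I list, 12 were lower and 4 higher in the Fn1-silenced library, with a median of -0.13 and none past 2-fold. Psmb8, an immunoproteasome subunit gene, was lowest at 46.9, 62.3 and 42.9 FPKM (-0.53). H2-Q4, a class I heavy chain gene, was highest at 54.1, 87.1 and 139 FPKM (0.67), and H2-Q6, singled out after its values were seen, was at 3.89, 7.85 and 18.9 FPKM (1.17). In both H2-Q genes the control was the lowest library. These genes are near-identical copies, so reads can be divided between them and their values are uncertain, as are those of Ifit3 and Ifit3b.

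Promoter windows of list genes were searched for motifs tied to the regulation that the lists are named for. A high share of a motif can therefore follow from the choice of list, here and for the mitosis and NRF2 lists below. Whether the share differed with the direct ratio was not tested. RefSeq windows (GRCm38.p6) of 300 bases, from 250 before to 50 after each annotated start, were found for 6738 of the 8820 genes. The letters GGGANTTNC, a core of the kappa B motif of NF-kB, were searched on both strands, and matches on both strands can overlap because the motif is close to its own reverse complement. They were present in the windows of 8 of 19 NF-kB list genes (42.1%), of 5.51% of the 6738 genes and of 4.26% of all 32851 windows. The letters GAAANNGAA, part of the interferon response element bound by IRF and STAT proteins, were present in 21 of 33 interferon-stimulated genes (63.6%), in 8.70% of the 6738 genes and in 8.56% of all windows. A match describes letters in a window and is neither a binding site nor a cause. The 250 bases before the start are given 5′ to 3′ on the strand of the gene for Cxcl10 (chr5:92348890-92349139, minus strand), Cxcl1 (chr5:90890995-90891244, plus strand) and Gbp2 (chr3:142620413-142620662, plus strand), with matches of both motifs to the Cxcl10 window, of GGGANTTNC to the Cxcl1 window and of GAAANNGAA to the Gbp2 window in capitals.
Cxcl10: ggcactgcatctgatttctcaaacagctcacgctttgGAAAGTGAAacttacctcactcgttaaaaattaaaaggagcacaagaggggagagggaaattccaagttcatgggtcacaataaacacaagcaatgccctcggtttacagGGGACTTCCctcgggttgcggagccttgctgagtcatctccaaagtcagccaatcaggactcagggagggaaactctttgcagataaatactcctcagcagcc
Cxcl1: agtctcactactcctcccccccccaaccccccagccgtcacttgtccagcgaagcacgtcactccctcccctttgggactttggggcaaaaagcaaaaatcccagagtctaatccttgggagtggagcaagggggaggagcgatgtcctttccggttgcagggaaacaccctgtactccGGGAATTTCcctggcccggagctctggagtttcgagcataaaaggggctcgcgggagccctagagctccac
Gbp2: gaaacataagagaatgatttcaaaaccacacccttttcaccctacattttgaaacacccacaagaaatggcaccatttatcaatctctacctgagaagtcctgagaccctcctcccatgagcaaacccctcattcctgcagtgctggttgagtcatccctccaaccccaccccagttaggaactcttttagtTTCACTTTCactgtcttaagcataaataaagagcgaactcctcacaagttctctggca

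In Cxcl10 the kappa B letters began 103 bases and the interferon letters 213 bases before the start. The kappa B match of Cxcl1 lay 71 bases before the start, and the interferon match of Gbp2, on the opposite strand, began 58 bases before it. The genes whose windows are printed had direct log2 ratios of -1.46, -1.20 and -0.56. On the NF-kB list the matching genes also included Csf1, the macrophage colony-stimulating factor gene, at 161, 172 and 198 FPKM, with a ratio of 0.20, so list genes with the letters lay on both sides of 0. Of the 5 list genes past 2-fold, Cxcl1 and Saa3 had a window, and that of Saa3 did not hold the letters.

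Mitosis genes and most DNA replication genes were lower in the Fn1-silenced library. All 29 mitosis genes were lower in the Fn1-silenced than in the NELL2-overexpressing library, where 50.2% of all genes had a ratio above 0. Their median ratio was -0.60, the range was -1.07 to -0.23, and the summed level was 381 FPKM against 590 FPKM. Past 1.5-fold 15 of 29 genes were lower, against the background of 3.22%, and past 2-fold only Spc25 and Prc1 were, against 0.635%. Of 29 DNA replication genes 27 were lower and 2 higher, with a median of -0.38. Only Tyms was lower past 1.5-fold, beside 3.22% of all genes, and it also passed 2-fold, beside 0.635%.

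Spc25 (chromosome 2, 69193895 to 69206194), a kinetochore subunit gene, was at 14.0, 20.3 and 9.18 FPKM in the control, NELL2-overexpressing and Fn1-silenced libraries. Its ratio was -1.07 and the control lay between. Prc1 (chromosome 7, 80294450 to 80316259), a regulator of the central spindle, was at 35.5, 32.0 and 15.2 FPKM with a ratio of -1.03, and here the control was the highest library. The cyclin gene Ccnb2 was at 23.7, 21.7 and 12.4 FPKM (-0.76), and the phosphatase gene Cdc25c, which activates CDK1, was at 5.14, 5.25 and 2.55 FPKM (-0.82). For both, the control and the NELL2-overexpressing library were close and the Fn1-silenced library was lower.

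Across the mitosis list the control lay above both libraries for 21 of 29 genes, and the medians against the control were -0.12 in the NELL2-overexpressing and -0.65 in the Fn1-silenced library. The DNA replication list had medians of -0.06 and -0.39. Its lowest member was Tyms (chromosome 5, 30058202 to 30073617), the thymidylate synthase gene, at 9.04, 14.7 and 6.67 FPKM (-1.03), again with an intermediate control. Ccna2, the S phase cyclin gene, was at 32.5, 29.1 and 19.6 FPKM (-0.55), and Mcm3, a replicative helicase subunit gene, at 22.4, 25.04 and 17.0 FPKM (-0.53). The replication genes were thus displaced in the same direction as the mitosis genes and by less at the median.

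Regulators of G1 did not share 1 direction. Of 15 genes 9 were lower and 6 higher, with a median of -0.08, and 4 were lower past 1.5-fold, beside 3.22% of all genes. Of the cyclin D genes, Ccnd1 (262, 253 and 126 FPKM, -0.9971) and Ccnd3 (105, 75.2 and 40.1 FPKM, -0.89) were lower in the Fn1-silenced library, whereas Ccnd2, looked up after its values were known, was at 175, 174 and 177 FPKM (0.02). The CDK inhibitor gene Cdkn1b was also lower, at 11.9, 18.1 and 9.35 FPKM (-0.88). Cdkn1c, another CDK inhibitor gene, was higher, at 4.84, 4.85 and 10.47 FPKM (0.97). In Ccnd1 and Cdkn1c the control and the NELL2-overexpressing library were alike, while in Cdkn1b the NELL2-overexpressing library was the one apart.

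Motifs known from cell cycle promoters were searched in the same windows. The letters TTTGAA, the cell cycle homology region read by the DREAM complex, were present in the windows of 18 of 25 mitosis genes (72%), of 13.8% of the 6738 genes and of 17.9% of all windows. A match starting within 50 bases of the start was found in 16 of the 25 genes (64%) and in 3.53% of the 6738 genes. The letters CCAAT, the box bound by NF-Y, were present in 19 of the 25 genes (76%), in 43.4% of the 6738 genes and in 37.4% of all windows. Both motifs were read on both strands, and a match of 1 can overlap a match of the other at its end. The 250 bases before the start are shown with both motifs in capitals for Prc1 (chr7:80294226-80294475, plus strand, 1 of its 2 windows) and Cdc20 (chr4:118437344-118437593, minus strand), an activator of the anaphase-promoting complex that was singled out after its values were seen.
Prc1: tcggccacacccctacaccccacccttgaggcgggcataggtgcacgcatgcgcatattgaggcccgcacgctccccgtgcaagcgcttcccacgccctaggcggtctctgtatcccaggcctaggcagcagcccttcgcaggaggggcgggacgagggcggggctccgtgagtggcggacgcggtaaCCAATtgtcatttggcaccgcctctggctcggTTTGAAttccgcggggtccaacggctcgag
Cdc20: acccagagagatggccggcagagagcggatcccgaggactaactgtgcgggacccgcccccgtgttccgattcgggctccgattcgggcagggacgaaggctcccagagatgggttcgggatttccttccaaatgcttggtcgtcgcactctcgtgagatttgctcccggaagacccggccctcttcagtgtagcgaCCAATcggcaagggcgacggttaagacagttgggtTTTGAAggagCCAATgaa

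In Prc1 the cell cycle homology letters began 30 and the CCAAT letters 62 bases before the start. In Cdc20 they began 18 bases before the start, with CCAAT letters 53 and 8 bases before it. Cdc20 itself was at 36.8, 35.0 and 23.7 FPKM in the control, NELL2-overexpressing and Fn1-silenced libraries, a direct log2 ratio of -0.54.

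**Figure D3:**
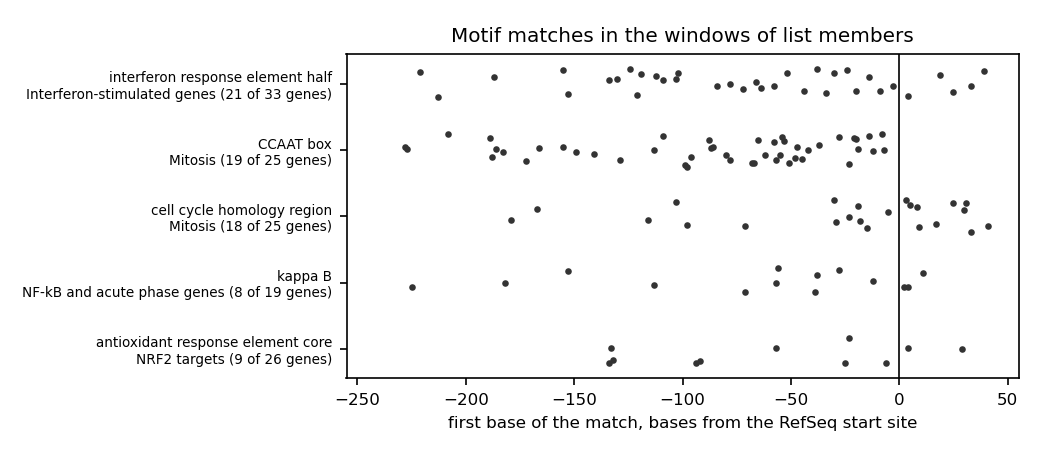
First base of each motif match in the RefSeq windows of the list genes (x axis, bases from the annotated start at 0; y axis, motif and list, with vertical scatter only for legibility). Matches of the cell cycle homology region gather around the start, where 16 of 25 mitosis genes have 1 within 50 bases, and CCAAT matches of the mitosis genes lie before the start.

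Most NRF2 target genes were higher in the Fn1-silenced library. Of 32 targets of NRF2, the transcription factor of the response to electrophiles and oxidants, 26 were higher and 6 lower, with a median direct log2 ratio of 0.25. Past 2-fold 3 were higher, against the background of 0.612%, and past 1.5-fold 11 were higher, against 2.77%, with none lower at either limit. The medians against the control were 0.070 in the NELL2-overexpressing and 0.33 in the Fn1-silenced library, and the control was the lowest library for 22 of the 32 genes.

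Taldo1 (chromosome 7, 141392199 to 141402968), the transaldolase gene of the pentose phosphate pathway, was at 35.6, 33.8 and 118 FPKM with a ratio of 1.77. Srxn1 (chromosome 2, 152105516 to 152111376), the sulfiredoxin gene that restores oxidised peroxiredoxins, was at 38.7, 43.2 and 112 FPKM with a ratio of 1.36. Gsta4 (chromosome 9, 78182774 to 78209349), a glutathione transferase gene for lipid aldehydes, was at 9.17, 8.15 and 21.7 FPKM with a ratio of 1.31. In all 3 the control and the NELL2-overexpressing library were close. Tkt, the transketolase gene of the same pathway as Taldo1, was at 73.3, 77.3 and 73.4 FPKM (-0.07) and was looked up after its values were known. Slc7a11, the cystine transporter gene, was at 2.27, 2.75 and 6.24 FPKM with a ratio of 0.95.

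Of the other NRF2 targets, 5 were singled out after their values were seen. Prdx1, a peroxiredoxin gene, was at 328, 467 and 854 FPKM (0.87), and Prdx6 was at 32.2, 71.5 and 112 FPKM (0.64). Both were higher than the control in both perturbed libraries. Nqo1, a quinone reductase gene, was at 92.7, 97.8 and 183 FPKM (0.90), and the iron storage gene Fth1 was at 1728, 1959 and 1577 FPKM (-0.31), so not every NRF2 target was higher. Txnrd1, the cytosolic thioredoxin reductase gene, was at 73.3, 72.6 and 109 FPKM (0.58).

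The letters TGACNNNGC, the core of the antioxidant response element bound by NRF2, were present in the windows of 9 of 26 list genes (34.6%), of 17.2% of the 6738 genes and of 12.4% of all windows, on either strand. The 250 bases before the start are shown with this motif in capitals for Prdx1 (chr4:116685349-116685598, plus strand) and Txnrd1 (chr10:82858956-82859205, plus strand, 1 of its 3 windows), whose matches stand on the opposite strand. For a gene with more than 1 window, here and for Prc1 above, the window with the most matches was printed. The other windows of Txnrd1 held no match.
Prdx1: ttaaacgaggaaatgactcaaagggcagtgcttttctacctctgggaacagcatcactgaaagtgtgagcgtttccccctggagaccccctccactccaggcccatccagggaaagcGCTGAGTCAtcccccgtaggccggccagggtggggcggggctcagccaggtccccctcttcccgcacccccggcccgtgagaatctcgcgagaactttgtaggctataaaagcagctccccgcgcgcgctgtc
Txnrd1: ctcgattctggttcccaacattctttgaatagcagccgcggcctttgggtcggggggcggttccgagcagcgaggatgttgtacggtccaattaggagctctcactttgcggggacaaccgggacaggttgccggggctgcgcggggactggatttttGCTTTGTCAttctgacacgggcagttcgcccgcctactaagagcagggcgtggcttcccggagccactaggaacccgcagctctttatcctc

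These matches began 133 bases before the start in Prdx1 and 92 bases before it in Txnrd1. The windows of Gclm and Ugdh, 2 NRF2 targets looked up afterwards whose ratios were 0.01 and -0.07, held the letters as well, and those of Taldo1 and Nqo1 did not.

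**Figure D4:**
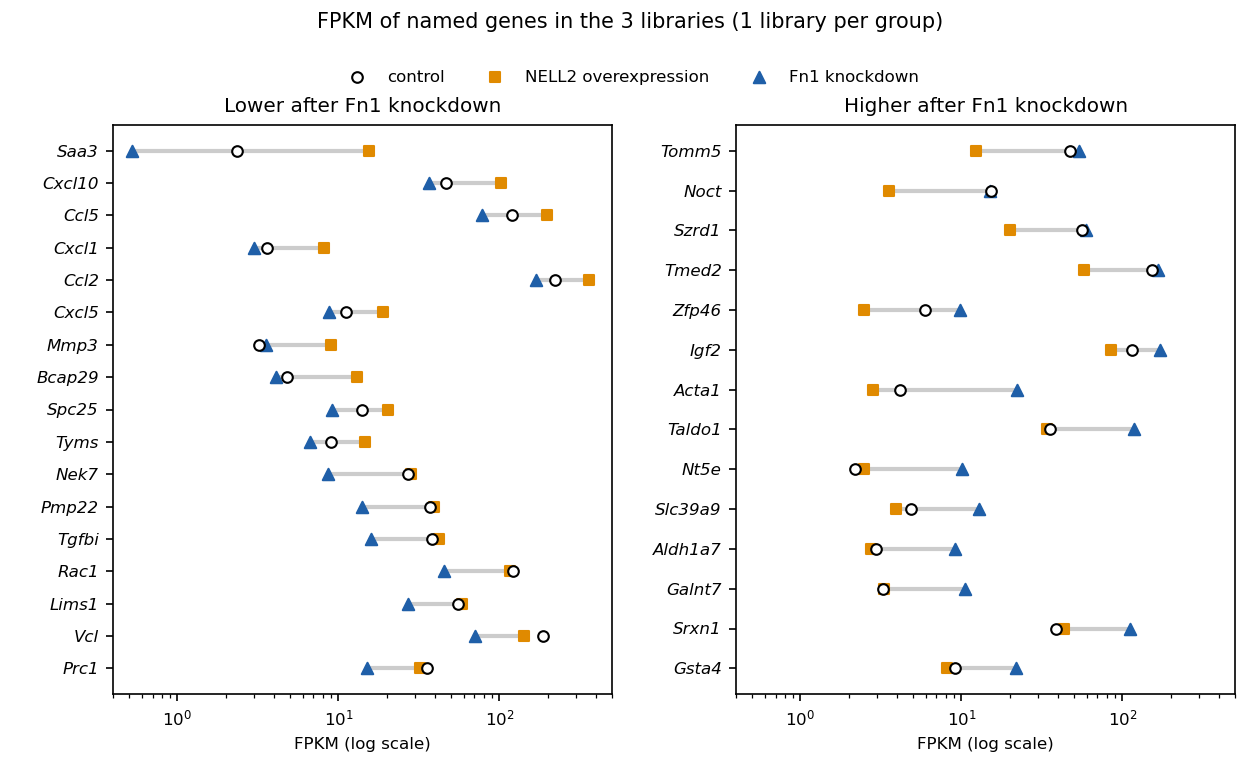
FPKM (x axis, log scale) of named genes past 2-fold in the control (open circle), NELL2-overexpressing (orange square) and Fn1-silenced (blue triangle) libraries, 1 library per group, with a grey line joining the libraries compared. For Saa3, Ccl5, Ccl2, Spc25 and Igf2 the control lies between the libraries, for Rac1, Nek7 and Taldo1 it lies at the NELL2-overexpressing library, and for Tomm5, Noct and Mmp3 at the Fn1-silenced library.

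Genes of cell adhesion were compared because fibronectin acts through integrins. The NELL2 receptor genes on the receptor list, Robo2, Robo3 and Ros1, did not reach 5 FPKM in either library. Of the 7 integrin and syndecan genes of that list that did, 5 were higher and 2 lower in the Fn1-silenced library, with a median of 0.20 and none past 2-fold. Itgb1, the common beta chain of fibronectin receptors, was at 497, 527 and 624 FPKM (0.24), and Itgav, an alpha chain that pairs with it, at 21.3, 21.9 and 33.5 FPKM (0.60). The syndecan gene Sdc1 was lowest at 43.6, 46.9 and 32.9 FPKM (-0.50), whereas Sdc2 was at 124.5, 122 and 148 FPKM (0.29). Among 3 other integrin genes, Itga6, a laminin receptor chain, was highest at 4.78, 3.51 and 7.62 FPKM (0.94), beside Itga3 at 20.5, 18.0 and 21.5 FPKM (0.24) and Itga11 at 29.7, 32.2 and 29.1 FPKM (-0.14).

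Focal adhesion genes as a list were near 0, with 19 higher and 17 lower of 36 and a median of 0.0088. Past 2-fold 3 were lower, beside 0.635% of all genes, and none was higher, beside 0.612%. Rac1 (chromosome 5, 143503634 to 143528036), a small GTPase that drives lamellipodia, was at 123, 117 and 45.6 FPKM with a ratio of -1.34. Lims1 (chromosome 10, 58323466 to 58424691), which encodes the adaptor PINCH1 of integrin-linked kinase, was at 55.7, 59.0 and 27.2 FPKM with a ratio of -1.09. Vcl (chromosome 14, 20929398 to 21033676), the gene of vinculin, which binds talin and actin, was at 188, 142 and 70.5 FPKM with a ratio of -1.0027. In Rac1 and Lims1 the control was at the NELL2-overexpressing level, and in Vcl the NELL2-overexpressing library was itself below the control. The gene farthest in the other direction was Git2, an adaptor of PAK and paxillin, at 19.4, 12.2 and 19.6 FPKM (0.64).

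Actin and matrix genes were spread on both sides of 0. Of 33 actin and contractile genes 21 were higher and 12 lower, with a median of 0.094. Acta2, the smooth muscle actin gene, was at 1027, 768 and 1227 FPKM (0.68), and the cytokinesis gene Anln was at 31.6, 29.7 and 19.2 FPKM (-0.60). Diaph3, a formin gene, was at 14.98, 13.3 and 8.93 FPKM (-0.52), and Limk1, the kinase that inactivates cofilin, at 7.35, 7.05 and 10.49 FPKM (0.51). A list of 13 genes held targets of YAP and SRF, regulators that respond to tension, together with the factor genes Srf and Tead1. Of these 13 genes 9 were higher and 4 lower, with a median of 0.24 and none past 1.5-fold. These included Ctgf (527, 496 and 733 FPKM, 0.56), Thbs1 (2177, 2237 and 3302 FPKM, 0.56), Crim1 (25.8, 24.5 and 35.7 FPKM, 0.53) and Ankrd1 (56.6, 51.2 and 74.2 FPKM, 0.53).

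Collagen and glycoprotein genes had medians of -0.040 in both lists. Of 28 collagen and collagen-processing genes 11 were higher and 17 lower, from Pcolce, an enhancer of procollagen cleavage, at 220, 244 and 155 FPKM (-0.66), to Col11a1, a fibrillar collagen gene of cartilage, at 54.2, 53.1 and 78.9 FPKM (0.56). The crosslinking enzyme gene Loxl2 was at 308, 315 and 229 FPKM (-0.45), and Col16a1 was at 43.9, 45.4 and 33.9 FPKM (-0.41). Of 26 glycoprotein and proteoglycan genes 11 were higher and 15 lower. Only Tgfbi (chromosome 13, 56609523 to 56639562), an integrin-binding matrix protein gene, was lower past 2-fold, beside 0.635% of all genes, and none was higher, beside 0.612%. It was at 38.1, 42.0 and 16 FPKM with a ratio of -1.34. The small proteoglycan gene Lum (76.6, 80.7 and 54.5 FPKM, -0.56), its relative Dcn (57.8, 71.7 and 50.5 FPKM, -0.50) and the fibulin gene Fbln1 (9.38, 10.1 and 6.46 FPKM, -0.58) were also lower. Of the 11 higher, Tnc (0.45), Ltbp1 (0.44) and Lamc1 (0.43), looked up after their values were known, had the highest ratios. Col2a1, the cartilage collagen gene, was on neither list and was singled out after its values were seen, at 300 FPKM in the control, 287 FPKM in the NELL2-overexpressing and 602 FPKM in the Fn1-silenced library (1.07).

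Matrix proteases and their inhibitors had a wide spread around a median of 0.0014, with 9 higher and 8 lower of 17. Past 1.5-fold 5 were higher, beside 2.77% of all genes, and 3 lower, beside 3.22%. Past 2-fold only Mmp3 was lower, beside 0.635% of all genes, and none was higher, beside 0.612%. The collagenase gene Mmp13 moved with Mmp3, at 21.8, 33.3 and 19.3 FPKM (-0.76). The urokinase receptor gene Plaur was at 55.9, 52.3 and 101 FPKM (0.93). Mmp3 and Mmp13 were thus higher in the NELL2-overexpressing library and Plaur higher in the Fn1-silenced library, each against a control close to the other library.

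**Figure D5:**
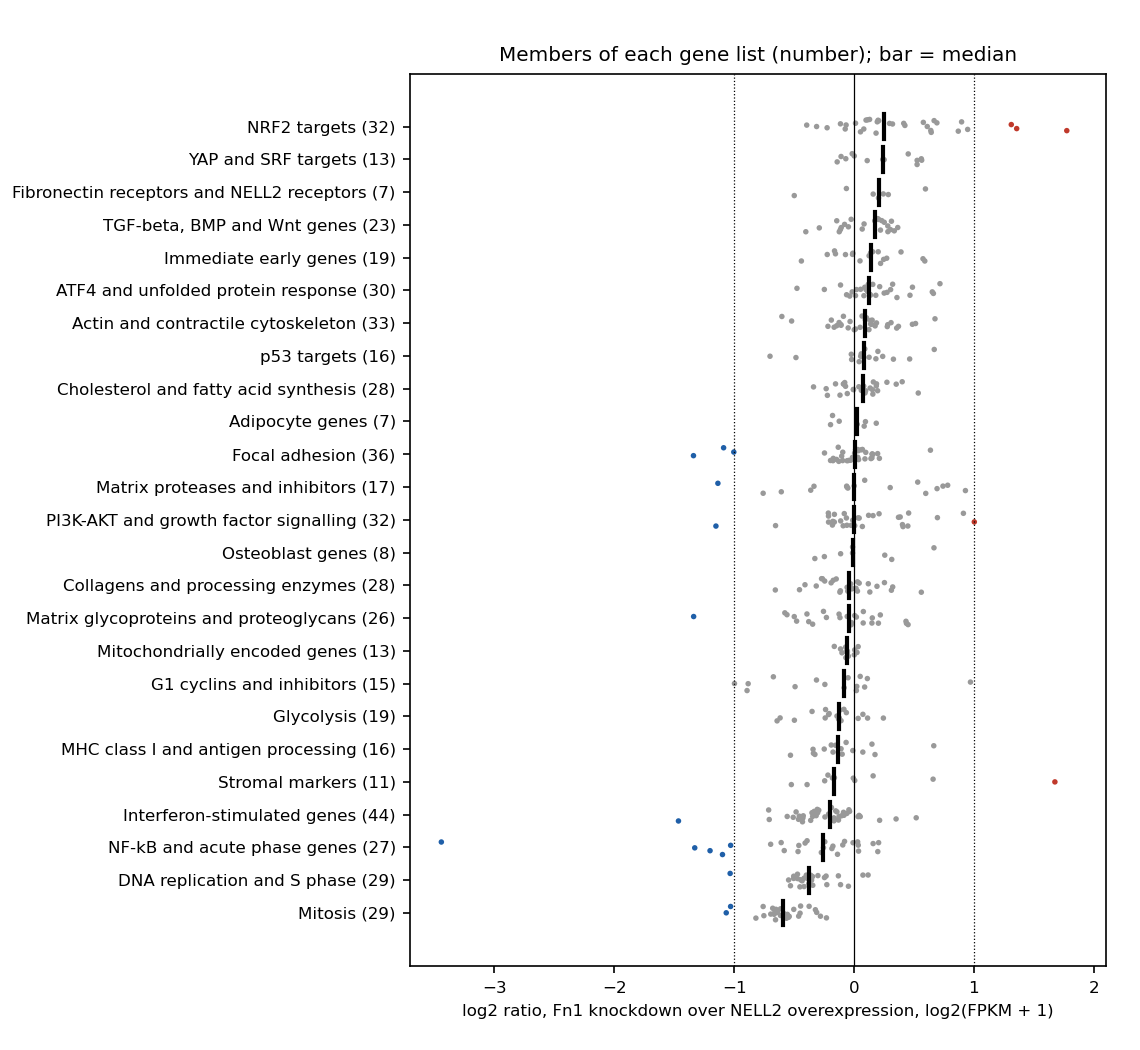
Direct log2 ratio (x axis, Fn1-silenced over NELL2-overexpressing, log2(FPKM + 1)) of every gene on each list with 5 or more genes (y axis, number of genes in parentheses), with medians as black bars, dotted lines at 2-fold, and genes past 2-fold in blue (lower) or red (higher). The mitosis list lies wholly below 0 with a median of -0.60, the NRF2 list has the highest median at 0.25, and most other medians lie near 0.

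In the PI3K-AKT and growth factor list the genes divided evenly, with 16 higher and 16 lower of 32 and a median of -0.0023. Akt2, a kinase gene of insulin signalling, was at 23.03, 23.8 and 45.6 FPKM with a ratio of 0.91, and Akt1, looked up after its values were known, was at 155, 149 and 153 FPKM with a ratio of 0.04. Fgf2, a mitogen for stromal cells, was at 1.62, 3.98 and 7.06 FPKM (0.70), and it overlaps Gm43439 on the same strand.

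Igf2 (chromosome 7, 142650766 to 142666816), the insulin-like growth factor gene, was at 114 FPKM in the control, 85.3 FPKM in the NELL2-overexpressing and 172 FPKM in the Fn1-silenced library, with a ratio of 1.0033. H19 (chromosome 7, 142575529 to 142578143), a noncoding RNA gene that lies 72.6 kb away in the same imprinted domain and was singled out after its values were seen, was at 15, 11.9 and 29.6 FPKM with a ratio of 1.25. In both, the control lay between the libraries and nearer to the NELL2-overexpressing library. Igf2 shares exon sequence with Gm49394 and H19 contains Mir675 on the same strand, so reads could be divided there.

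Genes set apart by the NELL2-overexpressing library included several of high level. Tomm5 (chromosome 4, 45105208 to 45108114), a subunit gene of the mitochondrial outer membrane translocase, was at 47.1, 12.4 and 54.0 FPKM with a ratio of 2.04. Noct (chromosome 3, 51224447 to 51251644), the nocturnin gene of a circadian phosphatase, was at 15.2, 3.54 and 15 FPKM with a ratio of 1.82. Tmed2 (chromosome 5, 124540695 to 124550506), a cargo receptor gene of the early secretory pathway, was at 152, 57.5 and 166 FPKM with a ratio of 1.52. In each the Fn1-silenced library stood at the control level. Szrd1 was similar at 56.0, 19.9 and 59.1 FPKM (1.52). For the zinc finger gene Zfp46 the control lay between the libraries, at 5.95, 2.48 and 9.86 FPKM (1.64). Bcap29 (chromosome 12, 31590967 to 31634658), an endoplasmic reticulum membrane protein gene, was the reverse case, at 4.81, 13.1 and 4.11 FPKM (-1.47).

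Genes set apart by the Fn1-silenced library were more numerous. Among those lower there, Nek7 (chromosome 1, 138482875 to 138620141), a kinase of mitotic spindles and of the NLRP3 inflammasome, was at 27.1, 28.1 and 8.65 FPKM with a ratio of -1.59. Pmp22 (chromosome 11, 63128982 to 63159547), a tetraspan membrane protein gene known from myelin, was at 36.9, 39.3 and 13.9 FPKM with a ratio of -1.43. Fignl1, an AAA ATPase gene of recombination repair, was at 6.72, 7.02 and 1.78 FPKM (-1.53). In each the NELL2-overexpressing library was at the control level. The remaining named genes of this kind were Mccc2, a subunit gene of the leucine-degrading methylcrotonyl-CoA carboxylase (5.89, 6.45 and 1.76 FPKM, -1.43), the mitochondrial carrier gene Slc25a40 (7.59, 7.52 and 2.20 FPKM, -1.41), the calcium-binding protein gene S100b (8.69, 7.61 and 2.35 FPKM, -1.36) and 1600014C10Rik (9.79, 11.02 and 3.395 FPKM, -1.45).

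Among those higher in the Fn1-silenced library, Acta1 (chromosome 8, 123891769 to 123894751), the skeletal muscle actin gene, was at 4.14, 2.83 and 22.3 FPKM with a ratio of 2.60. None of the skeletal muscle markers Myod1, Myog, Myh3 and Ckm reached 1 FPKM in any library. Nt5e (chromosome 9, 88327197 to 88372092), which encodes the ectonucleotidase CD73 and is a stromal marker, was at 2.17, 2.47 and 10.1 FPKM with a ratio of 1.68. The other stromal markers lay between -0.52 (Ly6a; 107, 142 and 98.5 FPKM) and 0.66 (Lepr; 7.71, 8.07 and 13.3 FPKM). Slc39a9, a zinc transporter gene (4.90, 3.94 and 12.8 FPKM, 1.48), Aldh1a7, an aldehyde dehydrogenase gene (2.94, 2.74 and 9.18 FPKM, 1.44) with a close paralog that can share its reads, and Galnt7, a gene of mucin-type glycosylation (3.26, 3.31 and 10.47 FPKM, 1.41), completed this group. Rpl22-ps1, a processed pseudogene, was at 0.370, 0.431 and 16.9 FPKM, while its parent Rpl22 was at 67.0, 69.9 and 65.9 FPKM. Reads of such copies cannot be told apart with certainty, so its ratio of 3.64 is uncertain.

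Lineage genes at 5 FPKM or more had medians near 0. Of 8 such osteoblast genes 3 were higher and 5 lower, with a median of -0.012 and none past 2-fold. Past 1.5-fold 1 was higher, beside 2.77% of all genes, and none was lower, beside 3.22%. Tnfrsf11b, the gene of the osteoclast inhibitor osteoprotegerin, was at 79.4, 75.2 and 120 FPKM (0.67), and its ligand Tnfsf11 (RANKL) at 4.66, 5.26 and 3.99 FPKM (-0.33). Spp1, the osteopontin gene, was at 2008, 2283 and 2727 FPKM (0.26). Of 7 adipocyte genes 4 were higher and 3 lower, with a median of 0.026, from the triglyceride synthesis gene Dgat2 at 5.94, 6.13 and 5.23 FPKM (-0.20) to the lipid droplet gene Plin2 at 82.1, 89.5 and 102 FPKM (0.19). The other 14 of 22 osteoblast and 14 of 21 adipocyte genes in the table were below 5 FPKM in both libraries.

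Genes with an overlapping neighbour on the same strand made up 22 of the 110 genes past 2-fold (20%), beside 9.11% of the genes with an annotated position, and their values are uncertain because reads can be divided between the neighbours. Of the 14 genes past 4-fold, 6 had no such overlap. Named genes below 2-fold can overlap a neighbour as well, among them Fgf2, Pcolce, Loxl2, Spp1 and mt-Nd2. Gm20431 was at 33.2 and 40.2 FPKM in the control and NELL2-overexpressing libraries and was listed at 0 in the Fn1-silenced library. Ube2v1, a ubiquitin-conjugating enzyme variant gene that overlaps it, went the other way, at 35.8, 24.1 and 97.7 FPKM. The estimated fragments of Gm20431, Ube2v1 and Tmem189 together were 113% of the NELL2-overexpressing library, so the sum differed less than its parts. Gm28051 was at 6.12 and 5.08 FPKM and listed at 0 in the Fn1-silenced library, with a neighbourhood sum of 99.5%.

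Other overlapping genes had sums both near and away from that of the NELL2-overexpressing library. Cpne1, a calcium-dependent phospholipid-binding protein gene, was at 33.8, 33.4 and 7.195 FPKM, while the overlapping Gm28036 was at 0.799, 0.671 and 19.1 FPKM, and the fragments of Cpne1, Gm28036 and Rbm12 together were at 53.7%. The linker histone gene H1fx was at 11.8 and 10.99 FPKM and listed at 0 in the Fn1-silenced library, and its annotated neighbour Gm47286 was not used here. Hist2h2aa1, a histone gene with near-identical copies, was at 13.1 FPKM in the NELL2-overexpressing library and listed at 0 in the others. Pcdhgb4, a gamma protocadherin gene, was at 2.71, 2.88 and 14.4 FPKM, with a cluster sum of 102%. Gm10774 was at 5.96, 0.0353 and 6.81 FPKM beside a sum with Usp50 of 67.5%, and the small nucleolar RNA gene Snora7a was at 4.97, 0.0639 and 5.62 FPKM inside Rpl32, with a sum of 102%. No fold is given where a library is listed at 0.

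The remaining lists were close to 0 or slightly to 1 side. Of 30 genes of the ATF4 and unfolded protein response 24 were higher and 6 lower in the Fn1-silenced library, with a median of 0.13, and 3 were higher past 1.5-fold, beside 2.77% of all genes. These were Psph, a serine synthesis enzyme gene (18.8, 19.1 and 32.1 FPKM, 0.72), Herpud1, of the degradation of misfolded proteins (34.3, 28.1 and 45.0 FPKM, 0.66), and Hspa5, the chaperone gene of BiP (148, 162 and 255 FPKM, 0.65). Glycolysis genes were lower for 15 of 19 with a median of -0.13, led by Ldhb, a lactate dehydrogenase chain (16.7, 17.7 and 10.96 FPKM, -0.64), and Pfkfb3, which makes an activator of phosphofructokinase (5.85, 7.204 and 4.35 FPKM, -0.62). Neither list had a gene past 2-fold.

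Signalling and stress lists held no gene past 2-fold either. The TGF-beta, BMP and Wnt list had 14 higher and 9 lower of 23 with a median of 0.17, between Nkd2, a Wnt antagonist (6.27, 10.3 and 7.55 FPKM, -0.40), and Id3, a BMP target (47.1, 48.8 and 63.1 FPKM, 0.36). Of 19 immediate early genes 12 were higher and 7 lower with a median of 0.14, between Egr1 (17.6, 18.0 and 12.98 FPKM, -0.44) and Btg1 (10.8, 11.7 and 18.2 FPKM, 0.59). Of 16 genes on the p53 target list, which also holds the p53 gene Trp53, 12 were higher and 4 lower with a median of 0.086. They lay between Trp53inp1 (23.6, 23.4 and 14.0 FPKM, -0.70) and Zmat3 (16.3, 15.1 and 24.6 FPKM, 0.67). Of 28 cholesterol and fatty acid synthesis genes 16 were higher and 12 lower with a median of 0.071, between Hmgcs1 (171, 173 and 137 FPKM, -0.34) and Dhcr7 (14.2, 13.01 and 19.3 FPKM, 0.54).

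Mitochondrially encoded genes were alike in the libraries compared, with 4 higher and 9 lower of 13 and a median of -0.055. The lowest was mt-Nd2, a complex I subunit gene, at 1077, 916 and 817 FPKM (-0.16), and mt-Co2, of complex IV, was at 2931, 2502 and 2314 FPKM (-0.11). The control was above both libraries for all 13 genes, and the list medians against the control were -0.23 in the NELL2-overexpressing and -0.31 in the Fn1-silenced library.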

How the data were processed

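Polyadenylated RNA of 3 ST2 cell libraries, 1 per group, was sequenced as paired ends. The submitters' processing notes name HISAT2, DESeq and GRCm38. The authors deposited 1 table of FPKM per gene, already scaled to transcript length and library total. The program behind FPKM, its annotation and the use of strand are not given in the sources used here, and FPKM can shift between genes that share exons or sequence. Of 51826 rows, 187 with a repeated name and 27 named by a date were left out (6 of them both). All 3 columns of values were used and 0 were left aside.

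A pseudocount of 1 was added, and genes reaching 5 FPKM in 1 or both of the libraries were compared on the log2 scale, which understates changes of weakly expressed genes. A gene was called past 2-fold at a difference of 1. With 1 library per group no test was run. Names were matched to GENCODE M21 (98.2% of the genes) for coordinates and overlaps. Depth was estimated from the value of 1 fragment in genes with 1 transcript and at least 600 bases, with 25.2% to 25.9% of low values within 0.02 of a whole number, and fragment numbers are therefore approximate. Its precision covers counting error only.

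Named genes were Nell2 and Fn1, the 12 highest and 12 lowest ratios past 2-fold without an overlapping gene, the 5 highest and 5 lowest with one, and in each of 29 lists every gene past 2-fold and otherwise the 4 largest ratios. Not every gene so chosen is described, and some items are not reported here. The lists (698 entries, 694 matched by name, 2 by an older symbol), motifs and genes compared were chosen with earlier results of these data known. Motifs were searched in RefSeq promoter windows (GRCm38.p6). The calling code was tested on simulated data, which is no test between the libraries. Python 3.11.15, numpy 2.4.6, pandas 2.3.3 and matplotlib 3.10.9 were used. Alternatives covered pseudocounts, filters, fold limits, scaling and overlapping genes.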

Additional observations from a re-analysis of the deposited data

Results flagged for a closer look

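Rnf26, an E3 ubiquitin ligase gene, was left out of the comparison because its name stood on 2 rows, and 1 of these rows held a signal above the control. That row was at 0.439 FPKM in the control, 21.7 FPKM in the NELL2-overexpressing and 7.33 FPKM in the Fn1-silenced library. The other row was at 1.14, 0.0855 and 0.426 FPKM. Of 24 rows left out at 5 FPKM or more, it was the only 1 past 2-fold between the libraries compared.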

How the results depend on the processing

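The number of genes past 2-fold depended mainly on the treatment of low values and on the limit itself. With a pseudocount of 5 it was 45 (25 higher and 20 lower in the Fn1-silenced library) in place of 110, and the control lay between both libraries for 31 of these genes in place of 76 of 110. With a pseudocount of 0.1 it was 141 (69 and 72), and at 10 FPKM 76 (41 and 35). At 1 FPKM or without a filter it was 161 (79 and 82), and these settings must give the same calls with a pseudocount of 1. A limit of 1.5-fold gave 528 (244 and 284) and a limit of 4-fold gave 14 (6 and 8). Median-of-ratios scaling gave 55 and 55, scaling without mitochondrially encoded genes, Nell2 and Fn1 gave 52 and 57, and both shifted the ratio by at most 0.0075 (log2). Without overlapping genes 88 remained (41 and 47). The settings for the place of the control, and the alternative of 20 or more estimated fragments in both libraries, were chosen after seeing the data, and the latter gave 100 (49 and 51). Of 544 values of named genes under alternatives, 516 kept their side of the 2-fold limit, 22 dropped below it, 6 passed it and 0 changed direction. Of 150 list medians 141 kept their sign and moved by at most 0.1, and 6 changed sign, all in lists with medians near 0. The mitosis median was -0.44 and the DNA replication median -0.27 with a pseudocount of 5. Ccnd1, Igf2 and Vcl lie so near the limit that 1 of the rescalings moved each across it.

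No paired analysis was possible because every library was alone in its group. Leaving out a replicate was not possible either. Of the genes past 2-fold, 10 had under 20 estimated fragments in the lower library, and their ratios are the least precise.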
